A study of Mus musculus with 16 samples.

Results

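Neutrophils carry 2 well-known classes of transcript that mark them in mixed tissue: those of the cytosolic alarmins S100A8 and S100A9, and those of the proteins stored in their granules. The measurements below cover 9 such genes in B16-OVA tumors, chosen as every probe set of the array whose only gene symbol is S100a8, S100a9, Ngp, Camp, Ltf, Lcn2, Cxcr2, Csf3r or Retnlg. Of these genes 8 had a probe set, 1 each, among the 45037 probe sets and 18193 genes analyzed. Retnlg, which encodes a resistin-like protein, was not matched and was not analysed here. B16-OVA melanoma cells, a mouse line engineered to make ovalbumin, grew under the skin of C57BL/6-Ly5.1 mice aged 6 to 12 weeks, and RNA of tumor pieces was hybridized on day 18 after inoculation, with 4 mice per group and 1 array per tumor. Control tumors came from mice given MCT (vehicle) and a control antibody. CD40 tumors received MCT and an agonist anti-CD40 mIgG1, MEKi tumors received the MEK inhibitor GDC-0623 at 30 mg/kg and the control antibody, and MEKi+CD40 tumors received both agents. All groups therefore had a daily gavage for about 2 weeks and antibody injections on days 3, 5 and 7 of treatment, with a last one 1 day before the end. The tumors are grown from 1 cultured line, and each value is the average over tumor cells and all host cells of a piece.

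S100A8 and S100A9 bind calcium and zinc, pair as calprotectin and fill the cytosol of neutrophils and of some monocytes. When released they act as alarmins through the receptors TLR4 and RAGE. The products of Ngp, Camp (cathelicidin), Ltf (lactoferrin) and Lcn2 (lipocalin 2) are stored in the secondary and tertiary granules, made while the cells mature in the bone marrow. Csf3r and Cxcr2 encode the receptors for G-CSF, which drives neutrophil production, and for the chemokines that call neutrophils into tissue. Lcn2 is also made by macrophages and epithelial cells in inflammation.

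S100a8 and S100a9 lie next to each other on chromosome 3, with 0 other protein-coding genes between their starts, while Camp, Ngp and Ltf all lie on chromosome 9. RefSeq (GRCm38.p6) promoters were found for all 8 measured genes. The 250 bases before the start of S100a8, S100a9, Ngp and Lcn2, on whose values the results turn, are shown 5′ to 3′ on the gene's strand, with capitals marking 8-letter matches to TTNNGNAA on either strand, a loose form of the sites of C/EBP factors, which drive granule genes, and the TATAAA box.
S100a8 (chr3:90668821-90669070, + strand): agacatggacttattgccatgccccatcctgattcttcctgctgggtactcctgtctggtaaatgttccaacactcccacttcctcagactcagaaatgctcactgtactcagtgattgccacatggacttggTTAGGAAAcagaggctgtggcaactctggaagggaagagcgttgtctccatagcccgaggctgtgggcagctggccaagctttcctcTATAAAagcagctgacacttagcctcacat
S100a9 (chr3:90695722-90695971, - strand): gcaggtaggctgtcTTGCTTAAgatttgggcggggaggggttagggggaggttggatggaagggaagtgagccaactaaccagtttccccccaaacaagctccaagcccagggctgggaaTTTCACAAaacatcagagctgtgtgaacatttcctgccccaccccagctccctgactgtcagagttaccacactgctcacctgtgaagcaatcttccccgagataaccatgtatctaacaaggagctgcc
Ngp (chr9:110419558-110419807, + strand): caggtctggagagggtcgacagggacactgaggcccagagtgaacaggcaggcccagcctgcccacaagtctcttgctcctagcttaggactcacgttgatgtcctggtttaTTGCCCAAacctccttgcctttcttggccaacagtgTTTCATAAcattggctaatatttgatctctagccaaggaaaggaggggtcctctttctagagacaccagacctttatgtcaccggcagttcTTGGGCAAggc
Lcn2 (chr2:32387740-32387989, - strand): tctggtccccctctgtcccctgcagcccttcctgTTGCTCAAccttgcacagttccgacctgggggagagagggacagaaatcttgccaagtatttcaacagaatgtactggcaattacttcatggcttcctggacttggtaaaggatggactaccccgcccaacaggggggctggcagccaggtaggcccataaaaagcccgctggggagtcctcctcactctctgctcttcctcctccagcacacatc
A match to TTNNGNAA was present in 5 of the 8 promoters (S100a8, S100a9, Ngp, Ltf and Lcn2), against 36.8% of 32851 promoters of the same length. GAGGAA, the core of sites of the myeloid factor PU.1, was present on either strand in 5 of the 8, against 23.3% of all. TATAAA was searched on the same terms and was present in 1 of the 8, 30 bases before the start of S100a8, against 12.4% of all. None of these motifs shares letters with another in the S100a8 window. Matches are letters only, and the arrays hold no measurement of binding.

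Signal is given as log2 RMA values, the normalized array signal, where 1 unit is a doubling. The background level, 4.94, was set by 44 olfactory receptor probe sets, whose genes melanoma is not thought to use, as the 95th percentile of their means over the arrays, and 39.7% of probe sets lay below it. A probe set is compared only with itself across tumors, since probes differ in brightness. The S100a8 probe set is of a type that can match several related transcripts. In the series 3 tumors stand apart through skeletal muscle transcripts, and this bears on all that follows: the mean of 15 muscle genes was 7.55 in CD40 tumor 3, 11.73 in MEKi+CD40 tumor 1 and 8.82 in MEKi+CD40 tumor 3, against 4.55 to 5.45 in the other 13 tumors. In MEKi+CD40 tumor 1 the 3′ signal of Gapdh also exceeded its 5′ signal by 0.38, against at most 0.08 elsewhere, a sign of RNA quality. Fewer neutrophils and less RNA per neutrophil cannot be told apart in whole tumors. Mean signal over the 16 tumors lay above background for S100a8, S100a9, Camp, Lcn2 and Csf3r, and below it for Ngp, Ltf and Cxcr2.

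Of the 8 measured genes 0 passed the test (adjusted p under 0.05 over all probe sets) in any comparison. Over all probe sets the share called was 0% for CD40 against control, 0% for MEKi against control, 0.00888% for MEKi+CD40 against control, 4.74% for MEKi+CD40 against CD40, 1.15% for MEKi+CD40 against MEKi, 0.893% for CD40 against MEKi and 0% for the interaction. At an unadjusted p under 0.05 the members numbered 0, 0, 2, 1, 4, 1 and 1 in the same order, against 8.56%, 6.91%, 21.2%, 21.3%, 20.3%, 13.9% and 14.3% of all probe sets. All 8 members were higher in MEKi+CD40 than in control (51% of all probe sets), with a median difference of 0.73 against 0.005 over all probe sets. All 8 were also higher in MEKi+CD40 than in MEKi (45.8% of all), with a median of 0.65 against -0.02. Both counts rest on the tumors with muscle transcripts. Without them S100a9, Csf3r and Ltf were under control (-0.04, -0.08 and -0.02). Csf3r and Ltf were then also under MEKi (-0.04 and -0.065), while in each case the other members stayed higher. In CD40 against control 6 of 8 were higher, beside 41.4% of all probe sets (median 0.37, all probe sets -0.025). In MEKi against control 3 of 8 were higher, beside 53.9% (median -0.02, all probe sets 0.01). The comparisons with a common group share its tumors, so these counts are not separate evidence.

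The alarmin pair was near background in most tumors and high in 3. S100a8 was measured at 3.79, 3.88, 3.87 and 5.98 in control tumors 1 to 4. In the CD40 tumors it was 4.57, 5.60, 8.67 and 5.62. The MEKi tumors gave 3.89, 4.19, 4.26 and 4.15, and the MEKi+CD40 tumors 9.04, 4.57, 8.47 and 5.17. All 4 MEKi tumors were thus below background, and each lay under every CD40 and every MEKi+CD40 tumor, whereas the control and CD40 groups overlapped through control tumor 4. Group means were 4.38 ± 1.07 (SD, n = 4) for control, 6.12 ± 1.77 for CD40, 4.12 ± 0.16 for MEKi and 6.81 ± 2.27 for MEKi+CD40. The order of means was MEKi, control, CD40 and MEKi+CD40, and no neighbors in it differed beyond their spread.

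S100a9 went along with S100a8 tumor by tumor. It was 4.56, 4.33, 3.99 and 6.55 in the control tumors and 4.45, 5.24, 8.66 and 4.84 in the CD40 tumors. In the MEKi tumors it was 4.23, 4.45, 4.58 and 4.78, and in the MEKi+CD40 tumors 8.70, 4.29, 8.43 and 5.34. The same 3 tumors led for both genes, with a gap of 2.49 to the next tumor for S100a8 and of 1.88 for S100a9, and control tumor 4 came next for both. Group means of S100a9 were 4.86 ± 1.15 for control, 5.80 ± 1.94 for CD40, 4.51 ± 0.23 for MEKi and 6.69 ± 2.21 for MEKi+CD40 (SD, n = 4 each), in the same order as for S100a8. All 4 groups overlapped.

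**Figure D1:**
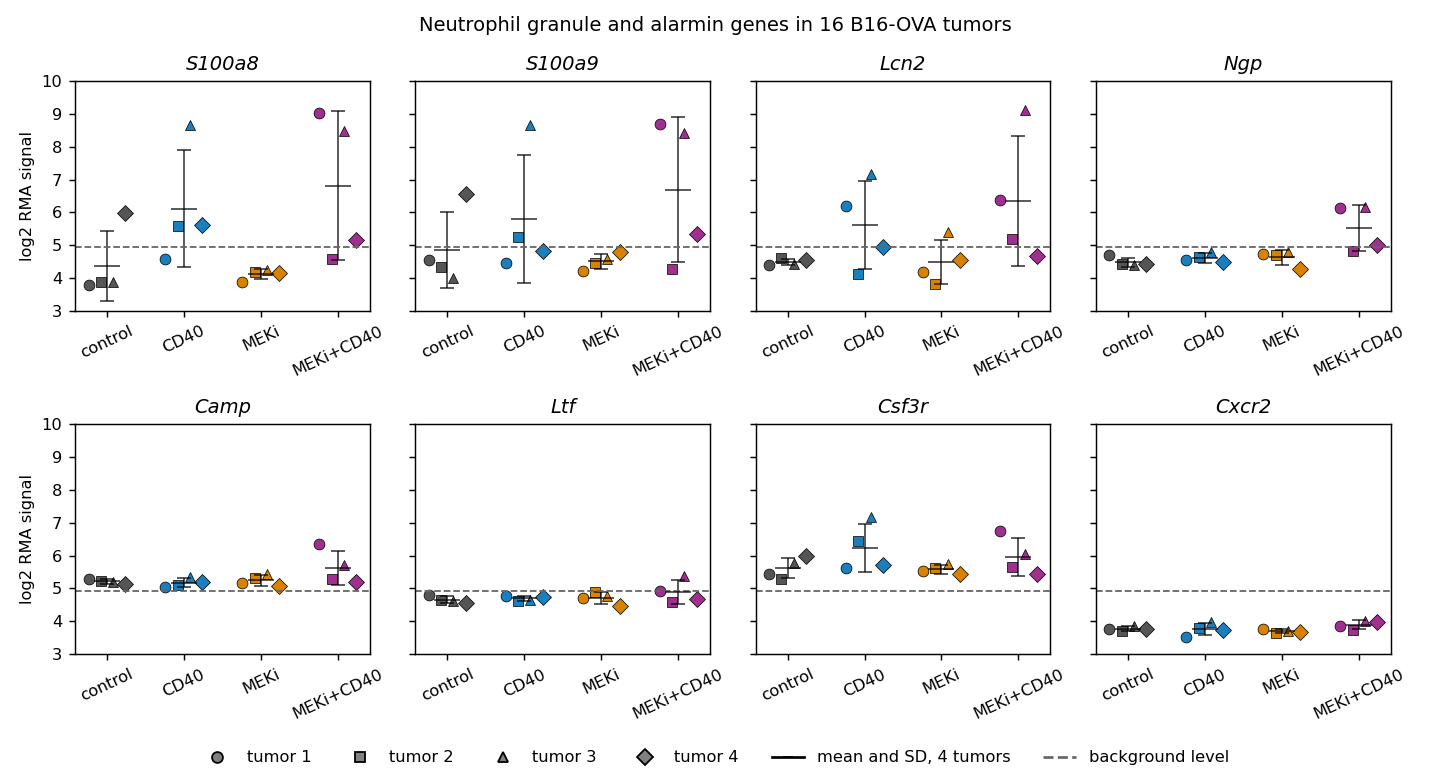
Log2 RMA signal of the 8 measured genes in each of 16 tumors by group, with 1 marker shape per tumor number, bars for mean and SD (n = 4) and a dashed line at the background level of 4.94. S100a8 and S100a9 reach 8.43 to 9.04 in CD40 tumor 3 and MEKi+CD40 tumors 1 and 3, while the 4 MEKi tumors stay below the line, and Ngp is highest in the MEKi+CD40 group.

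The 3 tumors with the highest S100a8 and S100a9 were the 3 with muscle transcripts. Their S100a8 signal was 13.9 times the background of its own array in CD40 tumor 3, 19.4 times in MEKi+CD40 tumor 1 and 10.9 times in MEKi+CD40 tumor 3. For S100a9 these values were 13.8, 15.3 and 10.6. Among the other 13 tumors S100a8 lay between 3.79 and 5.98, with 4 tumors above background (control tumor 4, CD40 tumors 2 and 4, and MEKi+CD40 tumor 4), and S100a9 between 3.99 and 6.55, with 3 above. The mean of the 12 pan-leukocyte genes, such as Ptprc (CD45), was 11.19 in CD40 tumor 3 and 10.40 in MEKi+CD40 tumor 1, the highest values of the series, but 9.13 in MEKi+CD40 tumor 3, below control tumors 3 and 4 (9.42 and 9.25). The part of the tissue that brought the muscle transcripts in the alarmin signal was not tested.

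**Figure D2:**
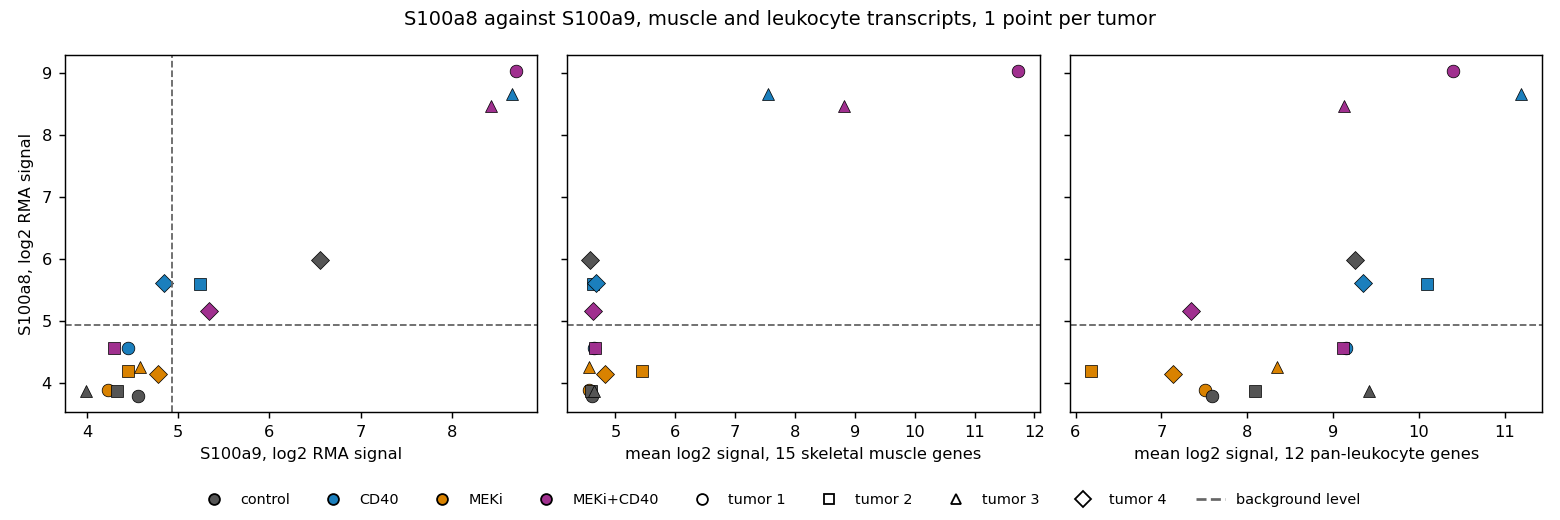
S100a8 in each tumor (log2 RMA signal, vertical axis) against S100a9, against the mean log2 signal of 15 skeletal muscle genes and against that of 12 pan-leukocyte genes, with 1 point per tumor, color for the group, shape for the tumor number and dashed lines at the background level. The 3 tumors with S100a8 above 8 are the 3 with a muscle mean above 7, and the 4 MEKi tumors lie below background at leukocyte means of 6.19 to 8.35.

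Because the tumors fall into 3 high and 13 lower ones, relations between members were measured within the 13 after subtracting each group's mean. S100a9 had r = 0.935 with S100a8 (permutation test, two-sided, p = 0.0109, adjusted over 7 relations p = 0.0764) and Spearman's rho = 0.835 (permutation p = 0.0262, adjusted p = 0.184). Without the 2 tumors farthest from the median of S100a8, r was 0.862, but the group means subtracted still included them, so this r is not free of them. For Csf3r the values were r = 0.572 and rho = 0.478 (permutation p = 0.158 and 0.272, adjusted p = 0.462 and 0.446). The other 5 relations, with Ngp, Camp, Ltf, Lcn2 and Cxcr2, had r between -0.339 and 0.359, and none of the 7 passed the adjustment.

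Neither alarmin gene passed the test between any groups. The comparison of MEKi+CD40 with control asks what both agents do together. S100a8 was 2.43 higher in MEKi+CD40 (SE 1.06, 95% interval 0.01 to 4.85), with an adjusted p of 0.233 by limma, and S100a9 was 1.83 higher (SE 1.05, adjusted p = 0.363). As 3 of 4 control tumors were below background for both genes, these differences carry no fold. Against MEKi alone, MEKi+CD40 had S100a8 2.69 higher (SE 0.96, adjusted p = 0.162) and S100a9 2.18 higher (SE 0.94, adjusted p = 0.241). Since every MEKi tumor was below background, the mean of all 4 MEKi+CD40 tumors was set against the mean background of the MEKi arrays. This gave at least 3.46-fold for S100a8 and at least 3.18-fold for S100a9, with 3 of the 4 above the background of their own array. These folds include MEKi+CD40 tumor 2, below background for both genes, and are not confidence limits. MEKi+CD40 tumor 4 exceeded the background of its array by only 0.0 for S100a8 and 0.17 for S100a9. Both folds therefore rest on the muscle-bearing MEKi+CD40 tumors 1 and 3. Without these, MEKi+CD40 minus MEKi was 0.75 for S100a8 and 0.305 for S100a9. CD40 alone had S100a8 1.74 above control (SE 0.84, adjusted p = 0.61) and 1.99 above MEKi (SE 0.73, adjusted p = 0.273, at least 2.13-fold on the same terms, with CD40 tumor 1 below background). For S100a9 the corresponding differences were 0.94 (SE 0.91, adjusted p = 0.811) and 1.29 (SE 0.80, adjusted p = 0.515).

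Neither gene passed the test for the MEK inhibitor alone, and the intervals are wide. S100a8 in MEKi minus control was -0.26 (SE 0.44, 95% interval -1.24 to 0.73, adjusted p = 0.923) and S100a9 was -0.35 (SE 0.48, interval -1.42 to 0.72, adjusted p = 0.9). Both signs came from control tumor 4: without it the differences were 0.28 and 0.22. Apart from control tumor 4, all tumors of both groups were below background for both genes, so these intervals do not bound an effect of the inhibitor. Adding the inhibitor to anti-CD40 gave 0.70 for S100a8 (SE 1.22, adjusted p = 0.797) and 0.89 for S100a9 (SE 1.25, adjusted p = 0.738). The interaction, the effect of anti-CD40 with the inhibitor minus that without it, was 0.96 for S100a8 (SE 1.39, adjusted p = 0.84) and 1.24 for S100a9 (SE 1.43, adjusted p = 0.784).

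Without the 3 tumors that held muscle transcripts the S100a8 difference of MEKi+CD40 from control was 0.49 and that of S100a9 was -0.04, and S100a8 in MEKi+CD40 minus CD40 turned to -0.39. What was left of S100a8 was largest between CD40 and MEKi, at 1.14 (adjusted p = 0.087), and S100a9 differed there by 0.33 (adjusted p = 0.565). Between CD40 and MEKi 448 of 45037 probe sets were called without the muscle-bearing CD40 tumor 3, and 402 with it. The macrophage and leukocyte lists were also higher in CD40. With CD40 tumor 3 included, the pan-leukocyte mean was 9.15 to 11.19 in the CD40 tumors and 6.19 to 8.35 in the MEKi tumors, without overlap. The macrophage and monocyte mean was 8.49 to 10.93 and 5.56 to 8.38. CD40 tumor 3 gave both upper ends, and the next highest CD40 tumor, tumor 2, had 10.095 and 9.49. The part of monocytes, which also hold S100a8 and S100a9, in the alarmin signal was not tested.

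**Figure D3:**
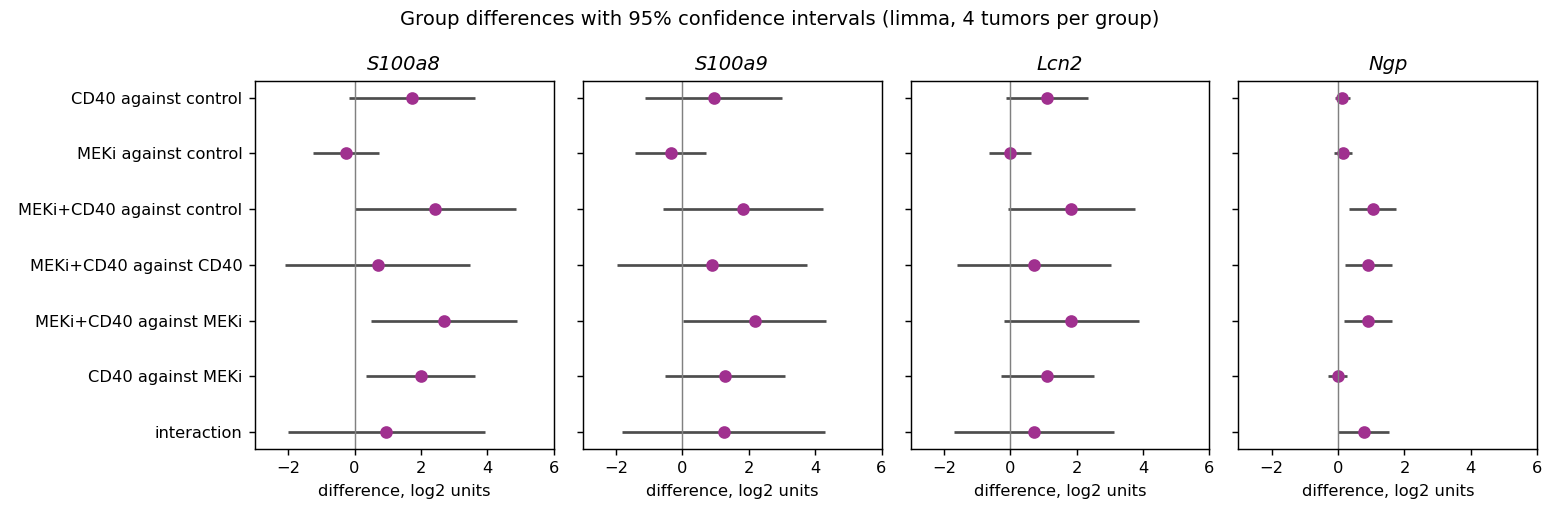
Differences between group means of S100a8, S100a9, Lcn2 and Ngp in log2 units (horizontal axis), each with its 95% confidence interval from limma, for 6 comparisons of 4 against 4 tumors and the interaction over 16 tumors. The intervals of S100a8, S100a9 and Lcn2 are wide, such as -1.96 to 3.74 for S100a9 between MEKi+CD40 and CD40, and those of Ngp are narrower and lie above 0 in the 3 comparisons of MEKi+CD40 with another group and in the interaction, as do those of S100a8 in MEKi+CD40 against control and MEKi and in CD40 against MEKi, and of S100a9 in MEKi+CD40 against MEKi.

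Ngp, the neutrophilic granule protein of maturing neutrophils, had another pattern across the tumors. It was 4.69, 4.42, 4.41 and 4.43 in the control tumors, 4.54, 4.65, 4.81 and 4.48 in the CD40 tumors, and 4.73, 4.70, 4.80 and 4.29 in the MEKi tumors. The MEKi+CD40 tumors gave 6.13, 4.83, 6.15 and 5.01. All 12 tumors of the other groups were below background, and all 4 MEKi+CD40 tumors were above each of these 12, by 0.02 at the closest. MEKi+CD40 tumors 1 and 3 were 2.58 and 2.19 times the background of their own arrays, whereas tumors 2 and 4 did not exceed theirs. CD40 tumor 3, with S100a8 at 8.67, had Ngp at 0.96 times its background. High alarmin signal with and without Ngp signal was thus present in different tumors.

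The Ngp mean in MEKi+CD40 (5.53 ± 0.71, SD, n = 4) was 1.04 above control (4.49 ± 0.14; SE of the difference 0.31, adjusted p = 0.1), 0.91 above CD40 (SE 0.31, adjusted p = 0.137) and 0.90 above MEKi (SE 0.32, adjusted p = 0.16). With 14 of the 16 tumors at or below the background of their arrays, no fold is given. The interaction was 0.77 (SE 0.35, adjusted p = 0.341), while CD40 alone was 0.13 and MEKi alone 0.14 above control (adjusted p = 0.747 and 0.844). Ngp was the single member that another setting called. With all 16 arrays in 1 limma fit, which share 1 estimate of the spread, its adjusted p was 0.0169 against control, 0.0297 against CD40 and 0.034 against MEKi. That fit called 4904, 5309 and 4699 of 45037 probe sets in the same order. The SD of Ngp was 0.71 in MEKi+CD40 and 0.14 to 0.23 in the other groups, so a shared spread lies below that of MEKi+CD40. Without MEKi+CD40 tumor 2 its adjusted p was 0.0458 against control, where 2327 probe sets were called. Without the muscle-bearing tumors the differences were 0.43, 0.36 and 0.29 (adjusted p = 0.151, 0.128 and 0.478), with 2 tumors left in the MEKi+CD40 group.

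Lcn2 was the most variable of the granule genes. It was 4.40, 4.60, 4.43 and 4.56 in the control tumors, all below background, and 6.20, 4.14, 7.18 and 4.95 in the CD40 tumors. The MEKi tumors gave 4.20, 3.83, 5.39 and 4.56, and the MEKi+CD40 tumors 6.38, 5.19, 9.11 and 4.67. The 3 muscle-bearing tumors led here too, but CD40 tumor 1, which had S100a8 at 4.57, followed only 0.18 lower. MEKi tumor 3 and MEKi+CD40 tumor 2 were above background for Lcn2 and below it for both alarmins. In MEKi+CD40 tumor 3 Lcn2 reached 17.0 times the background of its array, against 3.06 times in MEKi+CD40 tumor 1, where S100a8 was highest.

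Group means of Lcn2 were 4.50 ± 0.10 for control, 5.62 ± 1.34 for CD40, 4.50 ± 0.67 for MEKi and 6.34 ± 1.98 for MEKi+CD40 (SD, n = 4 each). MEKi+CD40 lay 1.84 above control (SE 0.84, 95% interval -0.08 to 3.76, adjusted p = 0.255, at least 2.78-fold, with 3 of 4 tumors above their own background) and 1.84 above MEKi (SE 0.89, adjusted p = 0.292). CD40 lay 1.12 above control (SE 0.55, 95% interval -0.11 to 2.35, adjusted p = 0.613, at least 1.69-fold, likewise with 3 of 4) and 1.12 above MEKi (SE 0.62, adjusted p = 0.46). Both folds set group means against background and are not confidence limits, since both intervals against control include 0. MEKi minus control was -0.0025, with an interval of -0.63 to 0.62. All control tumors and all MEKi tumors but tumor 3 were below background, so this interval does not bound an effect of the inhibitor. The difference between MEKi+CD40 and CD40 was 0.72 (SE 1.02, adjusted p = 0.74), and the interaction 0.72 (SE 1.13, adjusted p = 0.854). Without the muscle-bearing tumors MEKi+CD40 was 0.43 above control (adjusted p = 0.218).

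Camp, which encodes the antimicrobial peptide precursor cathelicidin, was just above background in all 16 tumors. It was 5.29, 5.23, 5.19 and 5.14 in control, 5.03, 5.10, 5.34 and 5.21 in CD40, and 5.16, 5.32, 5.43 and 5.06 in MEKi tumors. In MEKi+CD40 it was 6.34, 5.29, 5.71 and 5.20. The 2 highest tumors of the series for Camp were MEKi+CD40 tumors 1 and 3, the same that led for Ngp, and the rest lay within 5.03 to 5.43. Ltf, the iron-binding lactoferrin of the same granules, lay between 4.47 and 5.39 and exceeded 4.94 only in MEKi+CD40 tumor 3, and the background of its own array also in MEKi+CD40 tumor 1, by 1.11 times.

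Csf3r, the G-CSF receptor carried by neutrophils and their precursors, was above background in all 16 tumors. It was 5.44, 5.30, 5.77 and 5.98 in control, 5.61, 6.44, 7.18 and 5.72 in CD40, 5.53, 5.61, 5.74 and 5.44 in MEKi, and 6.74, 5.65, 6.06 and 5.43 in MEKi+CD40 tumors. The groups overlapped, with CD40 tumor 3 and MEKi+CD40 tumor 1 highest. Cxcr2, the receptor for the CXCL1, CXCL2 and CXCL5 chemokines, was between 3.53 and 4.02, below background in every tumor. At this signal no level of Cxcr2 can be given for any group. Over the 7 comparisons the 28 differences of Camp, Ltf, Cxcr2 and Csf3r lay between -0.27 and 0.66, the smallest adjusted p being 0.217.

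Among 35 other genes of neutrophils 28 had a probe set, and 1 passed the test. Fpr2, the formyl peptide receptor that neutrophils share with macrophages, was higher in CD40 than in MEKi tumors by 4.08 (SE 0.67, adjusted p = 0.0312, 16.9-fold). It was 8.23, 9.88, 11.40 and 7.91 in the CD40 tumors and 5.18, 5.15, 5.26 and 5.51 in the MEKi tumors. These MEKi values were close to the backgrounds of their arrays (4.91, 5.09, 5.03 and 5.05), so the fold rests on a reference near background. The groups did not overlap, and the difference was 3.40 (adjusted p = 0.0134) without the muscle-bearing CD40 tumor 3, but without CD40 tumor 2 or any 1 MEKi tumor the adjusted p was between 0.0665 and 0.123. In the same comparison Itgb2, Rac2, Lcp1, Cd68 and Fcgr1 of the leukocyte and macrophage lists were also called higher in CD40.

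Genes of the primary (azurophil) granules, made at the promyelocyte stage, stayed near background except Mpo and Prtn3 in MEKi+CD40 tumor 1. The background of that array was 4.77. Mpo, the myeloperoxidase gene, was 4.35 to 4.97 in 15 tumors and 5.72 in MEKi+CD40 tumor 1, and Prtn3, a serine protease of the same granules, was 6.41 there against 4.56 to 5.26 elsewhere. Wfdc21, a small secreted protein of neutrophils, was 5.83 in MEKi+CD40 tumor 1 and 5.00 in MEKi+CD40 tumor 3, the latter just under the background of its array (5.02), and 3.72 to 4.49 elsewhere. Mmp8, the neutrophil collagenase, was highest in CD40 tumor 3 at 7.04, followed by MEKi+CD40 tumor 3 at 6.22. These 4 genes were chosen after their values were seen, as were the following ones. Mmp9 and Padi4 were also highest in MEKi+CD40 tumor 1, at 9.81 and 5.43. Elane and Ctsg, also of the primary granules, stayed below the background level in all tumors, at 3.98 to 4.50 and 3.81 to 4.78. Only Ctsg in MEKi+CD40 tumor 1 just exceeded the background of its own array (4.77). Cd177, Olfm4, Stfa3 and Chil1 were below background in all tumors, at 3.12 to 3.56, 3.07 to 3.53, 3.23 to 3.70 and 3.81 to 4.27. Over the 28 genes the number higher in MEKi+CD40 than in control was 27 (median 0.36), beside 51% of all probe sets (median 0.005), and in CD40 than in control 26 (median 0.34), beside 41.4% (median -0.025). In MEKi+CD40 against CD40 it was 13 (median -0.02), beside 54.1% (median 0.02). The mean of these genes was 6.10 and 5.66 in the muscle-bearing MEKi+CD40 tumors 1 and 3, but 5.13 and 4.95 in tumors 2 and 4. It was 4.80 to 4.97 in the control tumors. In the muscle-bearing CD40 tumor 3 it was 6.27, against 5.119 to 5.525 in the other CD40 tumors. None of the 28 was called in these 3 comparisons, with 7, 10 and 2 at an unadjusted p under 0.05, beside 21.2%, 8.56% and 21.3% of all probe sets.

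The list of chemokines, growth factors and alarmin receptors was measured for 17 of 18 genes, and 0 were called in any comparison. At an unadjusted p under 0.05 they numbered 5 in CD40 against control (beside 8.56% of all probe sets) and 0 in MEKi against control (beside 6.91%). For MEKi+CD40 they numbered 3 against control (beside 21.2%), 3 against CD40 (beside 21.3%) and 2 against MEKi (beside 20.3%). The counts were 3 in CD40 against MEKi (beside 13.9%) and 2 in the interaction (beside 14.3%). Tlr4, the receptor for released S100A8 and S100A9, was 8.21 to 9.17 over the 16 tumors. Its lowest values were those of the muscle-bearing tumors, at 8.21 in MEKi+CD40 tumor 1, 8.41 in CD40 tumor 3 and 8.47 in MEKi+CD40 tumor 3. The CXCR2 ligands and the cytokines that feed granulopoiesis, picked here after their values were seen, were high in a few tumors that differed by gene. Cxcl1 was 10.92 in MEKi+CD40 tumor 1, 10.53 in MEKi tumor 3, 9.37 in CD40 tumor 3, 8.24 in MEKi+CD40 tumor 3 and 8.19 in control tumor 4, against 6.17 to 7.01 in the other 11. Cxcl5 was 9.31 in MEKi tumor 3 and 7.76 to 8.64 in the muscle-bearing tumors, against 3.11 to 5.50 elsewhere. Cxcl2 was spread more widely, at 6.66, 8.65 and 7.18 in CD40 tumors 2 to 4, 7.74 in MEKi tumor 3, 7.07 in MEKi+CD40 tumor 1 and 6.13 in control tumor 4, against 3.79 to 5.14 elsewhere. Its mean was 2.09 higher in CD40 than in control (SE 0.77, adjusted p = 0.56). Cxcl3 stayed below background in all 16 tumors, at 2.79 to 4.81. Il6 was 9.20 in MEKi tumor 3, 9.48 in MEKi+CD40 tumor 1, 8.50 in CD40 tumor 3, 7.18 in control tumor 4 and 7.05 in MEKi+CD40 tumor 3.

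MEKi tumor 3 therefore held ligand transcripts without the alarmins. Its Csf3 (G-CSF) was 7.39, the highest of the series, its Ppbp (another CXCR2 ligand) 7.92 and its Hp (haptoglobin, an acute phase and neutrophil granule protein) 11.05. S100a8 there was 4.26 and S100a9 4.58, both below background, with Ngp at 4.80 and Lcn2 at 5.39. The muscle mean of this tumor was 4.55 and its pan-leukocyte mean 8.35, the highest of the MEKi group. CD40 tumor 2 was a different case, with Fpr2 at 9.88, Clec4e (a lectin receptor of myeloid cells, chosen after its values were seen) at 8.82 and a pan-leukocyte mean of 10.10, but S100a8 at 5.60 and Cxcl1 at 6.78.

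**Figure D4:**
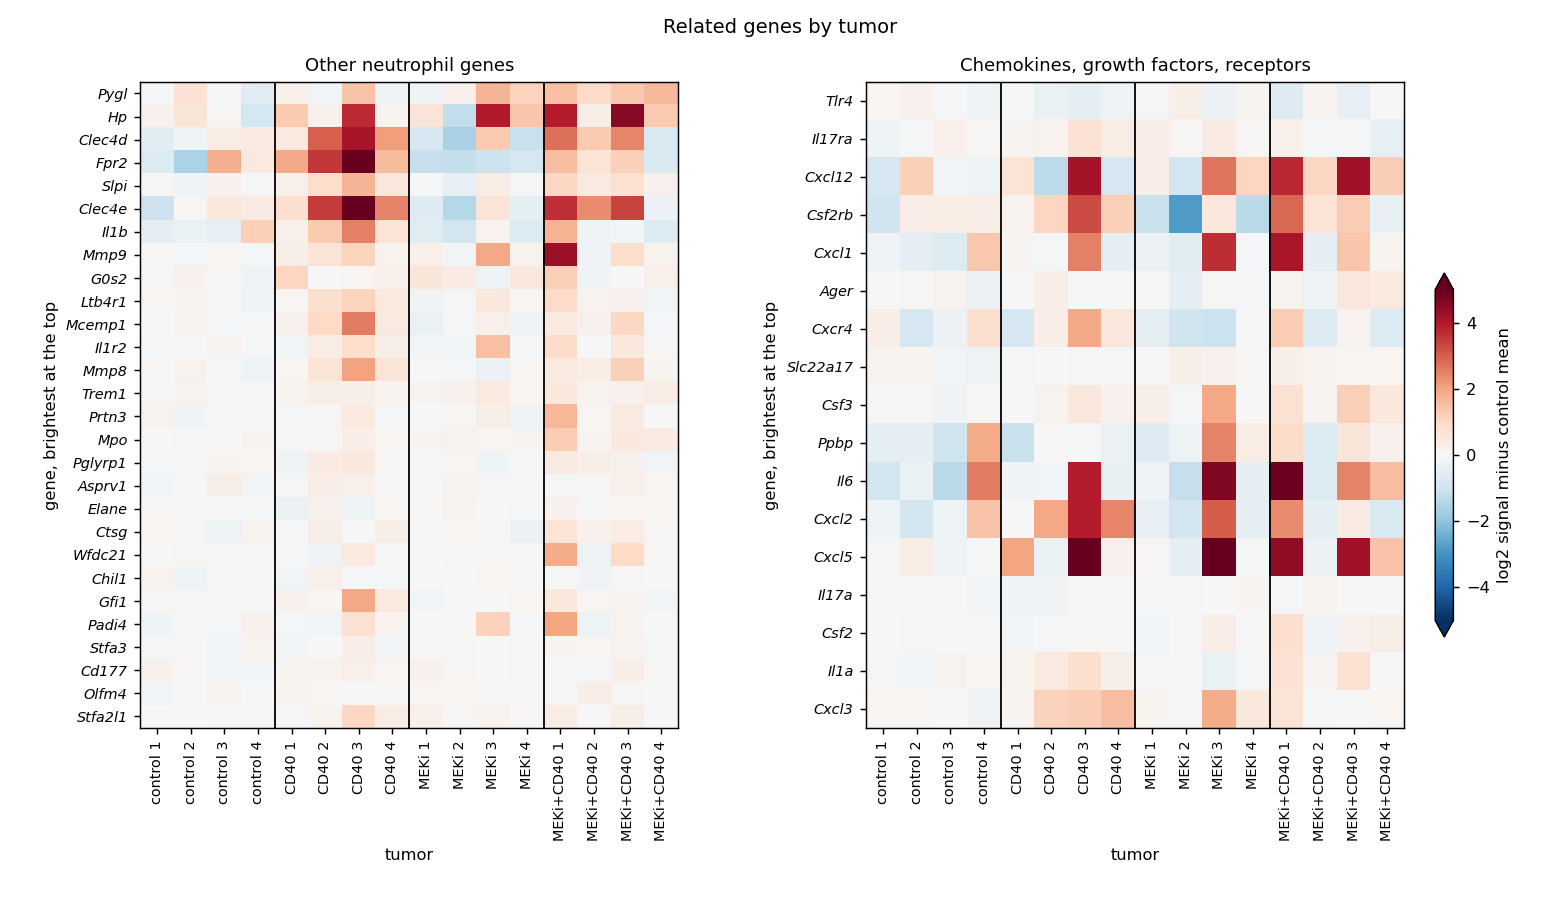
Log2 signal minus the control mean in each of 16 tumors for 28 other neutrophil genes and 17 genes of chemokines, growth factors and receptors, ordered by mean signal, with colors ending at 5 units either way. Fpr2, Clec4d and Clec4e (the last chosen after its values were seen) are above the control mean in all 4 CD40 tumors, whereas Il6, Cxcl1, Cxcl5 and Hp are high in MEKi tumor 3 and in the 3 muscle-bearing tumors.

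Keratinocytes make S100a8 and S100a9 in inflamed skin, and the mean of 17 keratinocyte genes was 4.57 to 4.91 in all 16 tumors, with 5 of the 17 above background by their means and the defining keratins Krt5 at 4.41 to 5.29 and Krt14 at 4.21 to 4.80. Sbsn of this list, a secreted protein of the skin, was 9.83 in MEKi+CD40 tumor 1 and 9.79 in MEKi tumor 3, against 7.58 to 8.58 elsewhere. The mean of 10 eosinophil, basophil and mast cell genes was 3.81 to 4.48, highest in MEKi+CD40 tumors 1 and 3. Of its mast cell proteases, Cma1 was 7.52 in MEKi+CD40 tumor 1 and 5.84 in MEKi+CD40 tumor 3, against 4.24 to 5.30 elsewhere, and Cpa3 was 6.06 in MEKi+CD40 tumor 1, against 3.85 to 4.69. Cma1 and Cpa3 were thus highest in the tumors where Ngp and Camp were highest, although Cpa3 in MEKi+CD40 tumor 3, at 4.69, was below background. Tpsb2 of the same list did not follow, at 4.49 and 4.70 in these 2 tumors and 4.82 in MEKi tumor 2, all below background. The part of mast cells and skin in the member values was not tested. Blood brings neutrophils into a piece of tissue, and 8 erythroid and blood genes had means between 5.45 and 6.63. The blood mean was highest in MEKi+CD40 tumor 1, at 6.63, and in control tumor 4, at 6.30, the control tumor with S100a8 at 5.98. The genes of this list did not move together. In control tumor 4 Alas2, the heme synthesis enzyme of red cell precursors, was 10.12, the highest of the series, while the alpha globin gene Hba-a2 was 6.71, the lowest of the control tumors. In MEKi+CD40 tumor 1 Hba-a2 was 5.74, the lowest of the series. Pf4, a platelet chemokine also made by macrophages, was highest in CD40 tumor 3 and MEKi+CD40 tumor 1, at 11.34 and 11.09. The part of blood in the alarmin values was not tested. The mean of 10 melanocyte genes was 12.91 to 13.44 in these tumors, which are labeled as melanoma.

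The genes most like the alarmin pair, by Pearson's r with the mean of S100a8 and S100a9 over 16 tumors among 12697 genes above background, were Sgk1 (0.946), C730049O14Rik (0.938), Ncoa3 (0.938), Relb (0.937) and Spop (0.926). These values rest in large part on the 3 high tumors, and over the other 13 they were 0.676, 0.553, 0.792, 0.695 and 0.504. Sgk1 encodes a kinase, Ncoa3 a nuclear receptor coactivator, Relb a subunit of NF-kB and Spop a ubiquitin ligase adaptor. On the same measure the other members stood at 0.83 (Csf3r), 0.766 (Lcn2), 0.74 (Ngp), 0.687 (Camp), 0.656 (Cxcr2) and 0.471 (Ltf). The points share arrays and the muscle-bearing tumors, and no test was made of them.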

How the data were processed

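Whole-transcriptome signal was measured in 16 tumors, 4 per group. Per the study's methods, 200 ng of RNA were labeled with a 3′ IVT kit, hybridized to Affymetrix mouse expression arrays and normalized by RMA in Chipster. The deposited values are log2 RMA signals, and their version was not given in the sources used here. RMA makes the distributions of arrays equal, so a shift of all genes would be removed. Of 45101 probe sets 64 control ones were left out. Genes were named from the platform annotation: 34945 probe sets had 1 symbol, 932 several and 9160 none. Groups were compared with limma (version 3.58.1, R 4.3.3), 2 groups at a time as in the methods, with the interaction on all arrays and Benjamini-Hochberg adjustment over 45037 probe sets. The code was tested on simulated data. Permutation tests used 100000 shuffles within groups. Each gene was read from its brightest probe set. The members, the gene lists and the tests were chosen with earlier results of these data known. In each related list, genes called in a comparison and the 4 brightest could be named, and others are said to be chosen after their values were seen. Alternatives changed the arrays fitted, the filter, the normalization, the eBayes settings and the tumors. The number of arrays limits the precision.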

Additional observations from a re-analysis of the deposited data

Results flagged for a closer look

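In 32 member groups and 36 list groups of 4 tumors, 5 held a tumor far from the other 3, by a gap that exceeds Dixon's critical value for the share of the group's range, and chance gives this in about 1 in 20 groups. S100a8 in control tumor 4 was 5.98, against 3.79 to 3.88 in the other control tumors (gap 0.959 of the range). S100a9 was 6.55 in that tumor, against 3.99 to 4.56. Ngp in control tumor 1 was 4.69, with a gap of 0.929, and this value lies below background. The list of chemokines, growth factors and alarmin receptors had a mean of 7.335 in CD40 tumor 3 (gap 0.859). The skeletal muscle list stood at 7.55 in the same tumor (gap 0.983). The erythroid and blood list was lowest in MEKi tumor 1, at 5.495 (gap 0.888).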

How the results depend on the processing

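The 56 member differences were recomputed 979 times under the alternatives: 924 kept their direction and side of the threshold, 51 changed sign and 4 passed the threshold, all 4 for Ngp. Members called were 0 except 1 with all arrays in 1 fit in each comparison of MEKi+CD40 with another group, and 0 to 1 in MEKi+CD40 against control when single tumors were left out. The causes were not tested.

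Without the muscle-bearing tumors S100a9 turned to -0.0142 in CD40 against control and to -0.0425 in MEKi+CD40 against control. In MEKi+CD40 against CD40, S100a8 turned to -0.39, S100a9 to -0.0283 and Lcn2 to -0.17, and in the interaction S100a8 to -0.14 and Lcn2 to -0.16. Lcn2 in MEKi against control was 0.0025 after median centring, and Ngp in CD40 against MEKi was 0.0486 after cyclic loess. With single tumors left out, differences ranged in MEKi against control from -0.45 to 0.28 for S100a8, from -0.64 to 0.22 for S100a9 and from -0.30 to 0.22 for Lcn2. In MEKi+CD40 against CD40 they ranged from -0.045 to 1.55 for S100a8 and from -0.20 to 1.28 for Lcn2. They ranged from -0.0142 to 1.504 for S100a9 in CD40 against control, from -0.123 to 0.0467 for Ngp in CD40 against MEKi and from -0.20 to 1.28 for Lcn2 in the interaction. Relations of S100a8 that passed the adjustment numbered 2 of 7 (S100a9 and Csf3r) over 16 tumors and 0 without the muscle-bearing ones.

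Counts of probe sets called moved more. In MEKi+CD40 against control 4 became 4904 with all arrays in 1 fit, 2042 with the filter on low signal, 1243 with 1 probe set per gene and 723 with trend and robust, and 0 with median centring, cyclic loess or without the muscle-bearing tumors. In MEKi+CD40 against MEKi 518 became 4699, 1623 and 853 under the first 3 of these and 0 under median centring, cyclic loess and without those tumors. In MEKi+CD40 against CD40 2133 became 5309 with all arrays. Trend and robust gave 4 in CD40 against control and 225 in CD40 against MEKi (402 otherwise), and MEKi against control had 2 with 1 probe set per gene and 2 with cyclic loess. Leaving out single tumors gave 0 to 2327, 0 to 1454, 0 to 3508, 0 to 1, 100 to 448 and, for the interaction, 0 to 560, in MEKi+CD40 against control, MEKi and CD40, CD40 against control and CD40 against MEKi.

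The labels number the tumors 1 to 4 in each group. Same-numbered tumors of 2 groups deviated together with r between -0.517 and 0.473, over 0.1 in 7 of 24 pairs, so the numbers were not taken to pair them. With the replicate number as a block, the counts called were 0 in MEKi+CD40 against control, against CD40 and against MEKi and 297 in CD40 against MEKi, and 0 members were called.

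Members with a mean above background numbered 5 by the 95th percentile of olfactory receptor probe sets, 5 after median centring and 7 by their median. Signals near background, as for Ngp, Ltf and Cxcr2, understate differences.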
